A study of Mus musculus with 8 samples.

Results

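The m6A peaks of 8 mouse genes were examined, namely Myc, Mycn, Mycl, Max, Mga, L3mbtl2, E2f6 and Pcgf6. A peak was taken as belonging to a gene when its exon blocks shared at least 1 base with an exon of that gene on the same strand, which gave 28 of the 18895 peaks listed for DMSO-treated cells and 26 of the 13001 peaks listed for Dox-treated cells. The libraries were made by MeRIP-seq, in which fragmented poly(A) RNA is pulled down with an antibody against N6-methyladenosine (m6A) and sequenced beside an input of the same RNA. The cells were E14 mouse embryonic stem cells (ESCs) cultured with LIF and serum replacement. All of them, the DMSO controls included, carried a doxycycline (Dox)-inducible transgene of Dux, a transcription factor that drives ESCs toward a 2C-like state, together with a tdTomato reporter under the MERVL promoter. DMSO or Dox was given for 24 h, and the labels list 8 libraries, with 2 replicates of IP and of input for either treatment. Only some cells of such a culture enter the 2C-like state, so each list describes a mixed population. The deposited files hold 1 peak list per treatment and no expression values, so no value here has a replicate error, the cell type was not checked against its markers, and no test between treatments was made. Intervals are Wilson 95% intervals, which cover counting error only, and peaks of 1 gene are not independent of each other.

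MYC, MYCN and MYCL are basic helix-loop-helix leucine zipper transcription factors that bind E-box DNA as dimers with MAX and promote growth and proliferation. MGA is a very large protein that also dimerises with MAX, and together with L3MBTL2, E2F6 and PCGF6 it belongs to PRC1.6, a variant Polycomb repressive complex that keeps germline genes silent in ESCs. MAX is therefore shared by an activating and a repressive branch. On mRNA, m6A is laid down by the METTL3-METTL14 complex, mostly within the DRACH consensus (where D stands for A, G or T, R for A or G, and H for A, C or T), of which GGAC is the most common core, and it is enriched in long internal exons and around stop codons.

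Sequences of sites that the lists share or that 1 list lacks are given first, so that both can be read beside the values. They were read from GRCm38 (mm10), are written 5′ to 3′ on the strand of the gene with T for U, and have DRACH matches in capitals. The best-scoring peak of all members, which had no Dox counterpart, lay over Max and joined 2 exon blocks within chr12:76939493-76940019 (minus strand).
Max, DMSO peak without a Dox peak: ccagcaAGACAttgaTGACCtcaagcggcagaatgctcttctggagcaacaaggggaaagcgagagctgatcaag
The only Pcgf6 peak, which also had no Dox counterpart, joined 3 blocks within chr19:47045909-47048112 (minus strand).
Pcgf6, DMSO peak without a Dox peak: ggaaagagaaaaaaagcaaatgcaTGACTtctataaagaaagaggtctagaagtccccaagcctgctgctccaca
Neither of these sequences holds GGAC. The best-scoring Mga peak of the DMSO list, chr2:119902712-119902911 (plus strand), is shown with the pair of Dox peaks that overlap it, chr2:119902687-119902736 and chr2:119902762-119902786. Each of the Dox peaks holds at least 1 of its DRACH matches.
Mga, DMSO peak: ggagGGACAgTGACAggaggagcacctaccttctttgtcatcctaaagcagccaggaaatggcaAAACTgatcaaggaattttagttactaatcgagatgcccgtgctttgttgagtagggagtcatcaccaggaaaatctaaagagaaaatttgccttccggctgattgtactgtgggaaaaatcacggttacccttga
Mga, Dox peak at its 5′ edge: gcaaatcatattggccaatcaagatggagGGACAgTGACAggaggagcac
Mga, Dox peak inside it: gccaggaaatggcaAAACTgatcaa
For Myc, the coding sequence in exon 2 that remained in the Dox list, chr15:61987991-61988065 (plus strand), and the stretch of exon 3 that lay in the DMSO peak but between the Dox peaks, chr15:61989658-61989807, are shown.
Myc, exon 2 Dox peak: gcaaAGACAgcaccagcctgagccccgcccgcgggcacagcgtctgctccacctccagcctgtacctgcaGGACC
Myc, exon 3 stretch in the DMSO peak only: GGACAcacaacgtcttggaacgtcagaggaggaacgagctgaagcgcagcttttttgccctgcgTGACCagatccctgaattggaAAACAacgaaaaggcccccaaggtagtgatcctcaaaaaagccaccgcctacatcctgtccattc
Short windows are given for GGAC sites of E2f6 (chr12:16825711-16825733, plus strand, DMSO list only) and of Max (chr12:76938150-76938172, minus strand, both lists). The E2f6 window runs past the end of its peak at base 16825724, so most of its second DRACH match (AGACA) lies outside the peak.
E2f6 site: ctagcataaGGACAGACAgctgg
Max site: ctgtttggtGGACTttgTGACTc

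Of the 8 genes, 7 carried a DMSO peak, where 27.5% of all 22028 protein-coding genes did. A Dox peak was found on 5 of the 8, where 22.1% of protein-coding genes carried one. Those shares are over all annotated protein-coding genes, whether or not they are expressed in ESCs. The members were also longer (median 4532.5 exonic bases against 3488) and were chosen with earlier results of these data known. E2f6 and Pcgf6 had peaks in the DMSO list only, which makes 2 of the 7 genes with any peak, and DMSO-only genes made up 21.5% of all genes with a peak in either list. Mycl had no peak in either list, and no member had peaks in the Dox list only. The union of exons of the 8 genes measured 45623 bases, of which 9450 lay in DMSO peaks, 6125 in Dox peaks and 6000 in both. In all 5 genes with peaks in both lists fewer bases lay in Dox peaks than in DMSO peaks, which was also true of 85.7% of the 4730 protein-coding genes with peaks in both lists. When the DMSO list was limited to its 13001 top-scoring peaks, the length of the Dox list, this held for 4 of the 5, as Mycn then had 2025 bases in DMSO peaks and 2050 in Dox peaks. The direction shown by the members was thus the usual one of the lists. The median member peak was 212.5 nt long in the DMSO list and 137.5 nt in the Dox list, against 125 nt for all peaks in each list.

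**Figure D1:**
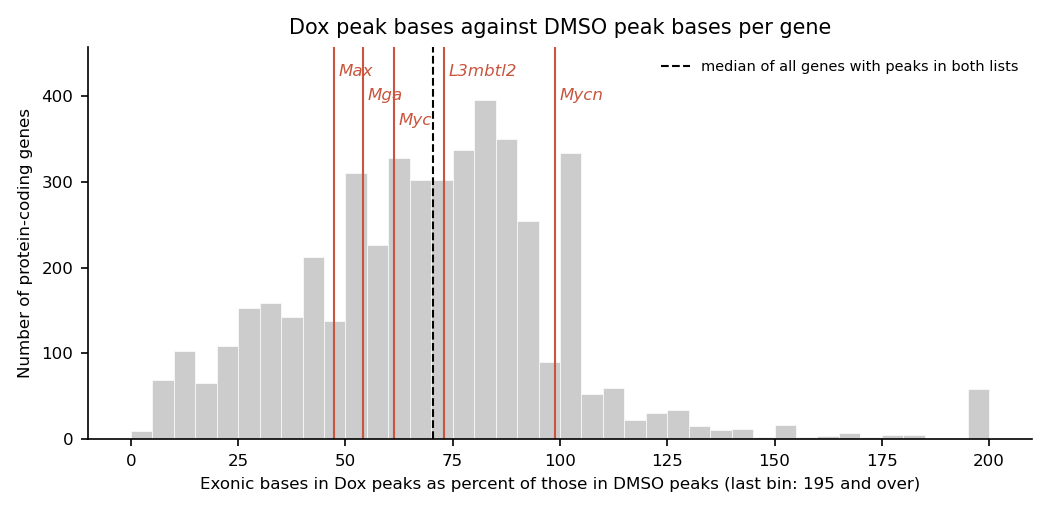
Histogram of exonic bases in Dox peaks as percent of those in DMSO peaks (horizontal axis) over the 4730 protein-coding genes with peaks in both lists (vertical axis, number of genes). Red lines mark the 5 members with peaks in both lists, from Max at 47.4% to Mycn at 98.8%, and the dashed line marks the median of all genes, 70.4%.

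Among the MYC paralogs, Mycn was covered by peaks over most of its length in both lists, Myc was covered in part, and Mycl not at all. Myc (chr15:61985391-61990374, plus strand), the broadly expressed member, had 2 DMSO peaks with 775 bases and 3 Dox peaks with 475 bases, 61.3% of the DMSO bases. The first DMSO peak was 225 nt of coding sequence in exon 2 (chr15:61987891-61988115) and had a score of 11.5. The score is the authors' value of the peak, which the labels do not define and which was read here as −log10 p. The Dox peak inside this DMSO peak was 75 nt long with a score of 10.7. In its own list the exon 2 peak ranked above 46.9% of DMSO peaks, and its Dox counterpart above 17.6% of Dox peaks. The second DMSO peak was 550 nt long (chr15:61989483-61990032, score 14.2) and ran in exon 3 across the stop codon. In the Dox list this stretch held 2 peaks of 175 nt (score 13.3) and 225 nt (score 11.3) that kept its outer edges. The 150 bases between them, printed above, hold 3 DRACH matches, 1 of them a GGAC. Coding bases of Myc covered by peaks numbered 648 of 1362 for DMSO and 348 for Dox, whereas 127 bases from the stop codon onward were covered in both.

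Mycn (chr12:12936093-12941914, minus strand), the paralog prominent in ESCs and in embryonic progenitors, had 2075 bases in 2 DMSO peaks and 2050 bases in 3 Dox peaks. All 1386 coding bases of its transcript lay in peaks in both lists. Peaks covered 63.0% of the exonic bases of Mycn in the DMSO list, a larger share than in 99.2% of the protein-coding genes with a DMSO peak, and 62.2% in the Dox list, larger than in 98.8% of genes with a Dox peak. The main DMSO peak was 2025 nt long, joined exons 2 and 3 and ended 541 bases into the part that begins with the stop codon (score 12.2). The Dox list had 2 peaks there, 1525 nt and 400 nt long, both with a score of 11.9. A small peak over the 5′UTR measured 50 nt in the DMSO list and 125 nt in the Dox list. In each list 16 nt of it lay in an exon of the noncoding transcript ENSMUST00000151534.1, and no coding transcript holds both blocks. This 5′UTR site was the only member site whose Dox peaks were longer in sum than the DMSO peak. Of the 13 GGAC sites of the Mycn transcript, 11 lay in DMSO peaks and 12 in Dox peaks.

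Mycl (chr4:122995652-123002485, plus strand), the paralog first found amplified in lung cancer, had no peak, although its 3501-nt transcript holds 26 GGAC sites, more than those of Myc (12) and Mycn (13). Both lists are limited by read depth and by transcript level, neither of which was analysed here. A missing peak therefore means that none passed the authors' threshold, not that m6A was absent.

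**Figure D2:**
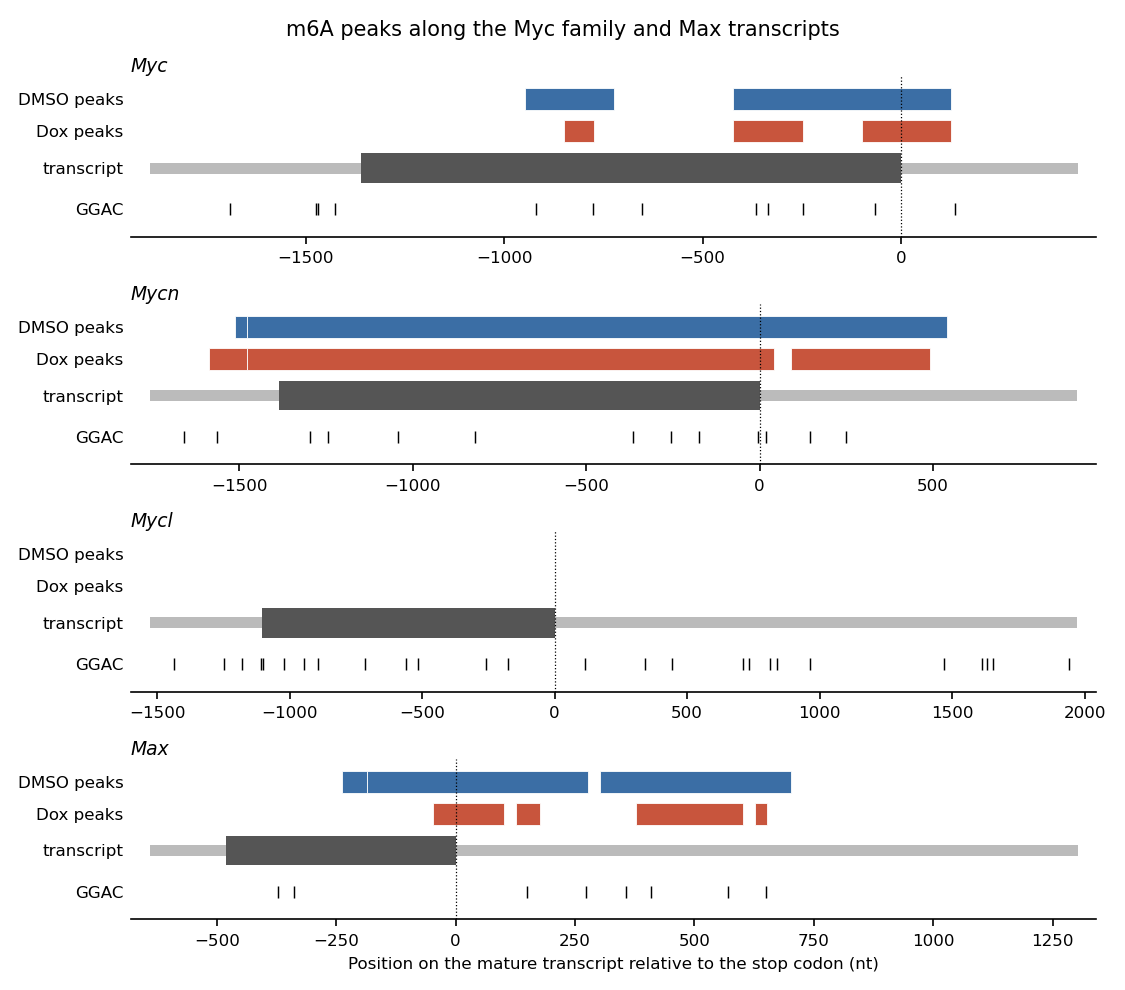
Peaks along the transcript with the longest coding sequence of Myc, Mycn, Mycl and Max, with position relative to the stop codon in nt on the horizontal axis (dotted line at 0). Blue bars are DMSO peaks, red bars Dox peaks, thick dark bars coding sequence and black ticks GGAC sites. Mycn is covered across its whole coding sequence in both lists, the 550-nt Myc peak is split in the Dox list, and Mycl has no peak.

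Max (chr12:76937269-76962201, minus strand), the common dimerisation partner, kept the smallest share of its peak bases of the 5 genes with peaks in both lists. It had 950 bases in 3 DMSO peaks and 450 bases in 4 Dox peaks, or 47.4%, and 23.2% of all genes with peaks in both lists had a lower value. The coverage differed along the transcript, since 238 of 480 coding bases lay in DMSO peaks and 48 in Dox peaks, while the covered bases from the stop codon onward numbered 677 and 402. The 75-nt peak printed above had the highest score of any member peak in either list, 19.2, above 96.1% of DMSO peaks. No Dox peak touched it. Its blocks were 53 nt of coding exon 4 and 22 nt of an 85-nt exon (chr12:76939430-76939514) that is annotated in the nonsense-mediated decay transcript ENSMUST00000218653.1, and no annotated Max transcript holds both blocks. The next DMSO peak, 475 nt long with a score of 11.5, began with 13 nt of the same exon before it ran into exon 5 and across the stop codon. No Dox peak touched the 85-nt exon. In the Dox list 2 peaks of 150 nt (score 11.6) and 50 nt (score 10.5) lay under the second DMSO peak. The sequence of the 50-nt peak occurs at 2 other loci of the genome with at least 98% identity, so its reads may be uncertain. The last DMSO peak, 400 nt of 3′UTR with a score of 11.3, held Dox peaks of 225 nt (score 10.99) and 25 nt (score 10.1). The GGACT site printed above lay in the DMSO peak and in the 225-nt Dox peak.

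Mga (chr2:119897228-119969581, plus strand), which tethers the complex to DNA through MAX and through a T-box domain of its own, carried 14 of the 28 DMSO peaks and 13 of the 26 Dox peaks. It had more peaks than 99.0% of the genes with a DMSO peak and 99.3% of those with a Dox peak, and its transcript is 13931 nt long. Almost all of the peaks lay in coding sequence. Of the 9126 coding bases, 4546 lay in DMSO peaks (49.8%) and 2475 in Dox peaks (27.1%). The part from the stop codon onward, 4619 bases long with 7 GGAC sites, had 29 bases in a DMSO peak and 0 in Dox peaks. For comparison, 71.9% of all placed DMSO peaks and 71.0% of all placed Dox peaks had their middle in coding sequence.

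Within Mga the sites changed to different extents. The 200-nt peak in exon 2 printed above had a score of 16.0, above 92.0% of DMSO peaks, and 50 of its bases lay in Dox peaks. Those Dox peaks, 50 nt and 25 nt long, had scores of 12.3 and 12.2. The first of them began 25 nt upstream of the DMSO peak. In exon 17, a peak of 325 nt with a score of 16.0 (chr2:119946981-119947305) became 200 nt with a score of 12.1 in the Dox list. Beside it, the longest peak of the gene, 1025 nt over exons 17 and 18 with 35 DRACH matches, became an 800-nt peak in exon 17. Its rank moved the other way, from above 58.3% of DMSO peaks (score 11.9) to above 87.3% of Dox peaks (score 14.0), the best Dox rank of any member. The same was seen for a 375-nt peak in exon 3, which ranked above 53.7% of DMSO peaks (score 11.8) and whose 250-nt Dox counterpart (chr2:119917009-119917258) ranked above 86.9% of Dox peaks (score 14.0).
Mga, exon 3 Dox peak: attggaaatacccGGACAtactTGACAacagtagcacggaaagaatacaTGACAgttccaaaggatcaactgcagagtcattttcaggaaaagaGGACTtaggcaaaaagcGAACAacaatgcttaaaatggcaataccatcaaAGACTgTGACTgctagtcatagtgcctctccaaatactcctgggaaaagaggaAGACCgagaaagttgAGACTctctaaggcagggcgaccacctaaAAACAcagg
This sequence, shown because its rank rose while most fell, holds 10 DRACH matches, 2 of which are GGAC. Scores were ranked only within a list, since depth may set their scale, and the difference in rank has no error.

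The remaining Mga peaks shortened, split or were missing from the Dox list. A 375-nt peak in exon 2 (score 11.8) went to 125 nt (score 10.8), a 275-nt peak in exon 8 (score 11.6) to 150 nt (score 11.3), and a 250-nt peak in exon 15 (score 11.6) to 225 nt (score 10.96). In the last exon, 2 DMSO peaks of 600 nt each, with scores of 11.8 and 11.6, faced 5 Dox peaks with lengths of 25 to 400 nt. The DMSO peaks with no Dox peak numbered 5. They were 25, 125, 100, 175 and 125 nt long, lay in exons 2, 3, 8, 9 to 10 and 22, and had scores from 10.5 to 12.5. None of them held a top-decile score, and 1 of the 5 held GGAC.

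**Figure D3:**
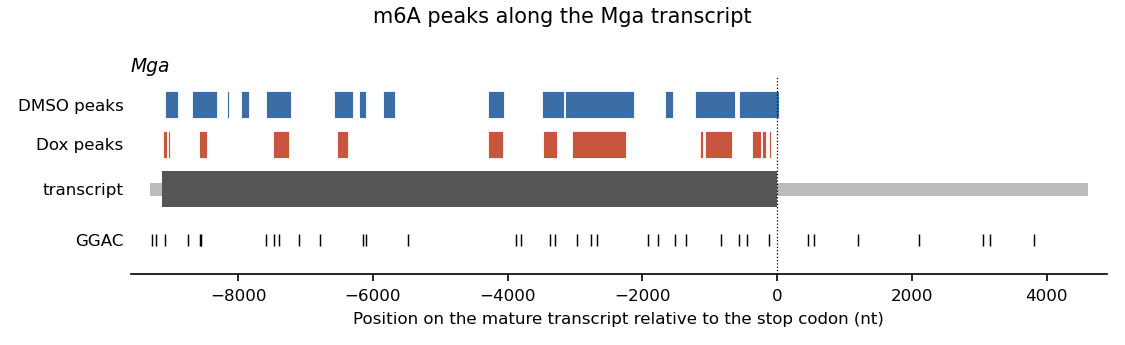
Peaks along the Mga transcript, with position relative to the stop codon in nt on the horizontal axis (dotted line at 0). Blue bars are DMSO peaks, red bars Dox peaks, the thick dark bar coding sequence and black ticks GGAC sites. The 14 DMSO and 13 Dox peaks lie along the coding sequence, and 29 bases after its end are in a peak.

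L3mbtl2 (chr15:81663889-81688315, plus strand), which encodes a histone-binding MBT-domain subunit of the complex, had 925 bases in 4 DMSO peaks and 675 bases in 3 Dox peaks, or 73.0%. Its main peak was nearly the same in both lists, 675 nt (score 11.9) and 625 nt (score 12.1) with 600 nt shared. That peak lay in a long last exon (chr15:81686940-81688315) of the APPRIS principal transcript ENSMUST00000023029.14 and of decay and retained-intron transcripts. The transcript with the longest coding sequence splices most of this stretch out. On the principal transcript the peak crossed the stop codon, with 54 coding bases and 621 bases of 3′UTR in the DMSO list. Farther downstream the lists differed more: a 150-nt DMSO peak (score 11.8) held 2 Dox peaks of 25 nt each (scores 10.2 and 10.3), and a 75-nt DMSO peak with a score of 13.5 had none. A GGACT site lay in the 150-nt peak, and its first 4 bases lay in the second of these Dox peaks. The remaining DMSO peak was 25 nt long (score 11.8), joined 19 nt of exon 15 with 6 nt of a retained-intron transcript, and had no Dox counterpart.

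E2f6 (chr12:16810963-16839742, plus strand), a repressive E2F that directs the complex to promoters of germline and cell cycle genes, had 2 small DMSO peaks in the 3′UTR and no Dox peak. They were 50 nt (score 10.5) and 25 nt (score 10.1) long and ranked above 10.04% and 2.27% of DMSO peaks. The sequence of the shorter peak occurs at 1 other locus. In the DMSO list limited to the length of the Dox list, E2f6 had no peak in either list. Pcgf6 (chr19:47033617-47050906, minus strand), the Polycomb group RING finger subunit that defines PRC1.6, had 1 DMSO peak of 75 nt in coding exons 4 to 6, with blocks of 5, 60 and 10 nt, and no Dox peak. Its score of 11.8 ranked above 55.7% of DMSO peaks, and it remained in the shortened DMSO list.

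**Figure D4:**
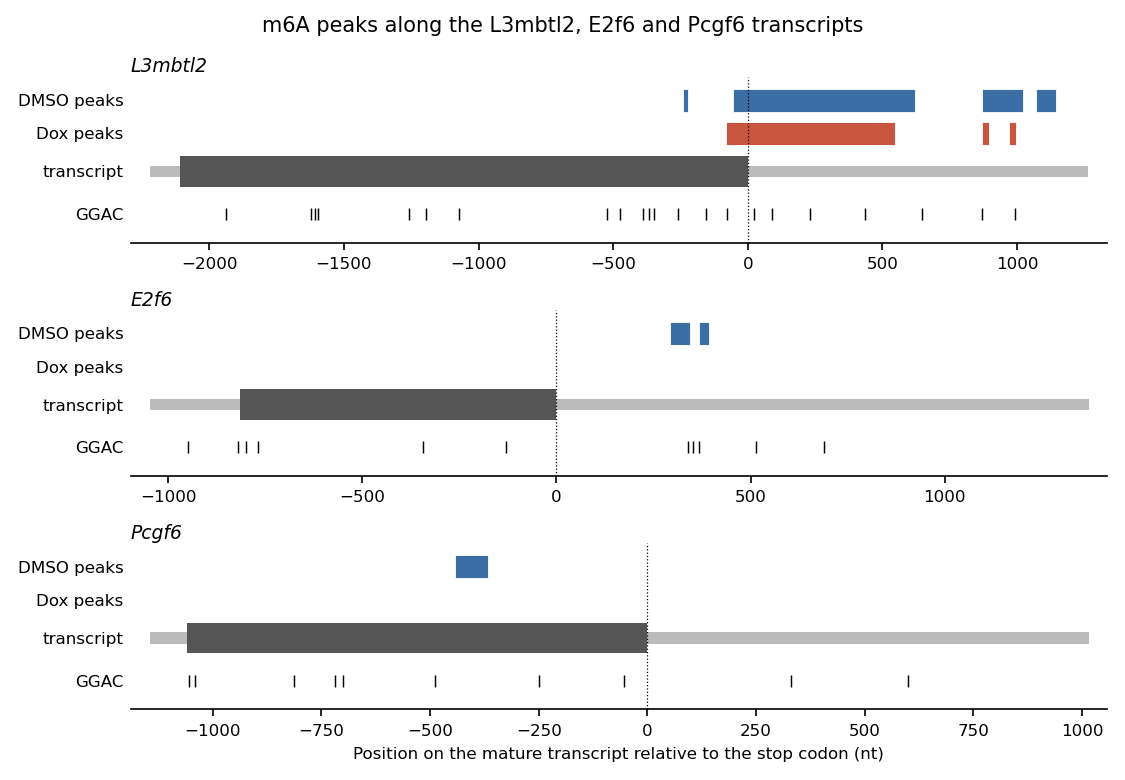
Peaks along the principal transcript of L3mbtl2 and the transcripts with the longest coding sequence of E2f6 and Pcgf6, with position relative to the stop codon in nt on the horizontal axis (dotted line at 0). Blue bars are DMSO peaks, red bars Dox peaks, thick dark bars coding sequence and black ticks GGAC sites. The long L3mbtl2 peak is present in both lists, and E2f6 and Pcgf6 have DMSO peaks only.

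Over the 8 genes, 17 of 28 DMSO peaks had a Dox peak over them, or 60.7% (42.4 to 76.4%), where 57.0% of all DMSO peaks did. All 26 Dox peaks overlapped a DMSO peak, or 100% (87.1 to 100%), where 92.7% of all Dox peaks did. Both background values lay within the intervals of the members. The 17 overlapped DMSO peaks had a median length of 375 nt and the other 11 a median of 75 nt. Among all DMSO peaks the overlapped share likewise rose with length, from 34.4% at 25 to 150 nt to 99.9% over 600 nt. In 16 of the 17 overlapped sites the Dox peaks were shorter in sum than the DMSO peak. The same was true of 68.4% of all overlapped DMSO peaks, and of 75.8% when these were weighted to the lengths of the member peaks. That difference was not tested.

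Member DMSO peaks were split more often than all DMSO peaks, in most cases by small Dox peaks of low score. Of the 28 DMSO peaks, 8 overlapped at least 2 Dox peaks, or 28.6% (15.3 to 47.1%), where 6.86% of all DMSO peaks did. They belonged to Myc (1), Mycn (1), Max (2), Mga (3) and L3mbtl2 (1). The member peaks were longer than most, and when all DMSO peaks were weighted to the same lengths the share was 13.4%, which was below the interval of the members. Some of the split peaks share a transcript, and the difference was not tested.

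The ranks of the scores moved both ways. At the 17 sites the best overlapping Dox peak had a lower rank within its list than the DMSO peak at 11 sites and a higher rank at 6. Of all overlapped DMSO peaks, 59.2% had a best Dox peak of lower rank. The 3 DMSO peaks in the top 10% of scores were the Max peak and the Mga peaks of exons 2 and 17 described above. No member peak of the Dox list was in its top 10%.

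**Figure D5:**
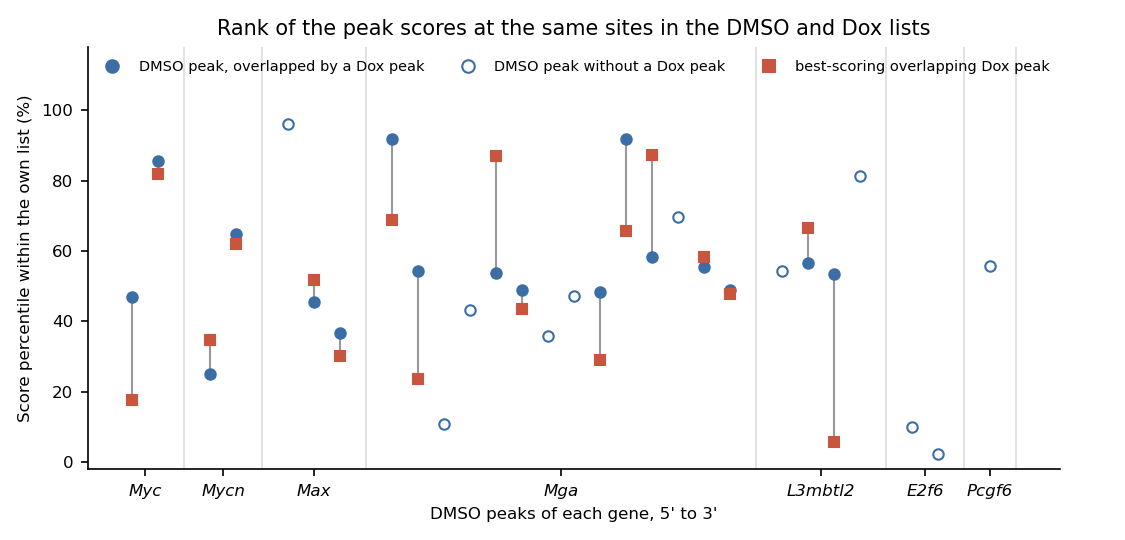
Score percentile of each DMSO peak within the DMSO list (blue circles, filled where a Dox peak overlaps it) and of the best-scoring overlapping Dox peak within the Dox list (red squares, joined by a line), in percent on the vertical axis. Peaks are ordered 5′ to 3′ within each gene. Of 17 joined pairs, 11 fall and 6 rise, and the best-ranked DMSO peak, in Max at 96.1, has no Dox peak.

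By position, member peaks lay mostly within coding sequence, with shares near those of all peaks and with most of the coding peaks in Mga. Of the peaks that could be placed on the transcript with the longest coding sequence, 21 of 27 DMSO peaks (77.8%) and 17 of 25 Dox peaks (68.0%) had their middle in coding sequence. Of all placed peaks, 71.9% of DMSO and 71.0% of Dox peaks did. Mga gave 14 of these DMSO and 13 of these Dox member peaks. In the other genes most placed Dox peaks had their middle outside coding sequence. For 4 of 27 DMSO peaks, or 14.8% (5.92 to 32.5%), the middle lay within 200 nt of the stop codon. For Dox it did for 7 of 25 peaks, or 28.0% (14.3 to 47.6%). Peaks that crossed the stop codon with their middle farther away, such as the 2025-nt Mycn DMSO peak, were not counted. Where several Dox peaks lay under 1 DMSO peak, each was counted. The shares for all placed peaks were 22.9% and 25.1% and lay within both intervals. On the APPRIS principal transcripts the members had 2 of 28 DMSO peaks there, or 7.14% (1.98 to 22.6%), and 4 of 25 Dox peaks, or 16.0% (6.40 to 34.7%). All placed peaks then had 23.1% and 25.5%, so that the DMSO value lay just above the interval of the members. The principal Myc transcript used has 3 bases from the stop codon onward. The middle of the 225-nt Myc Dox peak across the stop codon could therefore not be placed on it.

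GGAC was found on the peak's strand in 16 of 28 DMSO peaks and in 17 of 26 Dox peaks. For all peaks weighted to the lengths of the member peaks, the shares with GGAC were 65.3% and 54.5%. Every one of the 11 DMSO peaks over 300 nt held the motif, as did 92.3% of all DMSO peaks of that length. Counted from the transcripts, the 8 genes held 133 GGAC sites, of which 43 lay in DMSO peaks, 35 in Dox peaks and 33 in both. DMSO peaks thus held 32.3% of the sites on 27.6% of the transcript bases, and Dox peaks 26.3% of the sites on 17.4% of the bases. For all protein-coding genes with a peak, the DMSO values were 22.0% of sites on 14.8% of bases and the Dox values 16.0% on 10.1%. The member values include Mycl, which had no peak, and the L3mbtl2 transcript used splices out most of that gene's main peak. A motif match describes the letters only and does not mark a methylated base.

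Other genes of the same complexes were examined by count. Of 13 partners that PRC1.6 shares in part with other complexes, 11 were found in the DMSO list with 44 peaks and 9 in the Dox list with 26, where 27.5% and 22.1% of protein-coding genes had peaks. Of the 9 with both, 8 had fewer bases in Dox peaks, where 85.7% of all such genes did. Tfdp2, the DNA-binding partner of E2F proteins, had 2 DMSO peaks of 175 nt in sum and no Dox peak. Cbx3, a heterochromatin protein that binds methylated histone H3, had 3 DMSO peaks of 300 nt in sum with a best score of 21.6 and no Dox peak. Hdac1, a histone deacetylase, had 925 bases in DMSO peaks and 725 in Dox peaks, and Cbx1, another heterochromatin protein, 1000 and 300. Ehmt1, a histone H3 methyltransferase, had 1550 and 1025 bases, and Wdr5, a WD40 scaffold protein, 575 and 375. Rybp, which stimulates the ubiquitin ligase of variant PRC1, was named after its values were seen, as the exception with 725 bases in both lists.

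Of 9 further genes of the MAX and MLX network, 4 had DMSO peaks and 3 had Dox peaks, counts that were not tested against the 27.5% and 22.1% of all protein-coding genes. Mxi1, a MAX-binding antagonist of MYC, had 3 DMSO peaks of 250 nt in sum and no Dox peak. Mlxip, which senses glucose metabolites as a partner of MLX, had 575 and 525 bases, Mnt, another MAX-binding repressor, 400 and 275, and Zbtb17, through which MYC represses genes, 475 and 325. None of 12 germline genes known as PRC1.6 targets in ESCs, among them Ddx4, Dazl, Mael and Sycp3, had a peak in either list. The background shares of 27.5% and 22.1% are not a like comparison for these 12 genes, which were chosen as repressed in ESCs. Their transcript levels were not analysed here, so the missing peaks say nothing about m6A on their transcripts.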

How the data were processed

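Peaks were compared between E14 ESCs given DMSO and those given Dox. According to the study's methods and the submitters' processing notes, reads were filtered with fastp 0.19.4 and aligned to mm10 with HISAT2 2.2.1, and exomePeak2 served to call peaks from IP and input, whose version, settings and treatment of replicates are not given in the sources used here. The value of each peak deposited by the authors was read as its −log10 p-value, since the lowest was just above 10 in both lists and 3 DMSO and 1 Dox values were infinite. Whether it was adjusted is not given in the sources used here. Library depth was not analysed here, and a deeper library gives more and longer peaks at a fixed threshold.

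Exons came from GENCODE vM21 (GRCm38), and 99.8% of inner block edges in each list lay at an annotated exon edge. Bases covered were counted over the union of a gene's exons. Regions used the transcript with the longest coding sequence. A peak was taken to be at the stop codon when its middle lay within 200 nt of that codon. Lists counted as overlapping when they shared 1 base on the same strand. blastn 2.17.0 was used to find near-identical loci (98% identity over 90% of the peak). Analysis used Python 3.11.15, numpy 2.4.6, scipy 1.17.1 and pysam 0.24.0, and was tested on simulated data (987 transcripts). All members were named with every peak. Of the 3 further gene lists, genes with peaks in 1 list only and up to 4 others with most peaks were named, and for the germline list, which had none, examples. Members and lists were chosen with earlier results of these data known. Alternatives were the score threshold, list size, transcript, strand, introns, required overlap, window and motif.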

Additional observations from a re-analysis of the deposited data

How the results depend on the processing

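The 12 results were recomputed under 47 alternatives, of which 33 stayed within 1.5 times a count or within the interval of a share. With a score of at least 15, the member genes with a peak fell to 2 (DMSO) and 0 (Dox), the peaks to 3 and 0 and the covered bases to 600 and 0, and 0 of 3 DMSO peaks were overlapped (Wilson upper bound 56.1%). No Dox peak was left to give the converse share. When the overlap had to reach 50% of the peak, 39.3% of DMSO peaks were overlapped, and with 50% of both peaks 32.1% of DMSO and 34.6% of Dox peaks were. With a window of 400 nt, 33.3% of DMSO peaks had their middle at the stop codon. DRACH was found in 89.3% of DMSO and 80.8% of Dox peaks, and the reverse complement GTCC in 26.9% of Dox peaks (42.9% of DMSO peaks). With equal list sizes E2f6 lost its peaks, Mycn had 2025 bases in DMSO peaks against 2050 in Dox peaks, and the other directions were kept. Peak number and length are limited by depth and by transcript level, whose part in the results was not tested. No paired analysis was possible because the replicates enter only as 1 joint list of peaks per treatment, and for the same reason no replicate could be left out.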
